A study of Mus musculus with 36 samples.

Results

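The 37 genes described here encode the insulin and IGF1 receptors, their adaptors, the PI3K-AKT kinases with their targets GSK3 and FOXO, the TSC, Rheb and mTOR proteins, the LKB1 complex, AMPK and acetyl-CoA carboxylase. They were chosen by symbol from a list for these pathways, and 37 of 37 were found among the 56893 symbols of the germ cell tables and the 55492 symbols of the gonad tables. The study measured RNA in fetal mouse germ cells and ovaries after intrauterine hyperglycemia (IUHG). On day 3.5 of pregnancy the dams of IUHG fetuses received streptozotocin (STZ), a toxin of pancreatic beta cells, at a dose of 120 mg/kg, and those with blood glucose over 14 mM on day 6.5 were kept. The labels give the genotype as wild type in all libraries. Primordial germ cells (PGCs) were sorted by flow cytometry for the *Oct4-EGFP* transgene from pooled fetuses at E12.5 (sex not determined), E13.5 female (E13.5F), E13.5 male (E13.5M), E16.5 female (E16.5F) and E16.5 male (E16.5M). Whole gonads, pooled, came from E13.5 female fetuses of ICR mice. Each of these 6 sources had 3 control and 3 IUHG libraries, which gives 12 groups and 36 libraries. The depth, read from the ratio of the deposited coverage to FPKM, was 3.25 to 8.32 aligned gigabases per PGC library and 3.89 to 4.95 per gonad library, and the counting error of a single gene is unknown. Levels are in TPM, the share of a gene in all transcripts of a library, which corrects for transcript length, so levels can be compared between genes. FPKM is the same signal scaled by reads in place of transcripts.

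Insulin and IGF ligands activate PI3K and AKT through receptor tyrosine kinases and IRS adaptors, and AKT phosphorylates GSK3, the FOXO factors and TSC2, the last of which releases Rheb to activate mTORC1. LKB1, encoded by *Stk11*, works with STRAD and MO25 to activate AMPK when cellular energy is low, and AMPK restrains mTORC1 and acetyl-CoA carboxylase. In the germ line these pathways are known for their part in the growth and dormancy of oocytes, where FOXO3 holds primordial follicles at rest.

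Each comparison used limma on log2(TPM + 1) across all genes with a mean of at least 1 TPM in a compared group, and a gene was called at an adjusted p under 0.05. All log2 differences are on this scale, which understates the change of genes with low levels. The p-values measure the spread between pools of fetuses. The 5 germ cell genes *Ddx4*, *Dazl*, *Dppa3*, *Mael* and *Pou5f1* each passed 1 TPM in all 36 libraries. Their summed level fitted the sort label, at 2613 to 9025 TPM in the PGC libraries against 555, 479 and 489 TPM in the control gonads. Single genes did not always do so. *Pou5f1* held 3.05 to 13.6 TPM in the E16.5F PGC libraries, below its 91.4, 59.2 and 74.8 TPM in the control gonads. *Dppa3* in E16.5F IUHG, at 14.5, 2.53 and 9.81 TPM, was also below the control gonads (195, 68.8 and 90.5 TPM). Y-linked RNA (*Eif2s3y*, *Ddx3y*, *Kdm5d*, *Uty*) summed to at most 0.601 TPM in each female PGC library. The E12.5 libraries, of undetermined sex, held 210.1, 194 and 212 TPM of these genes in the controls and 148, 129.6 and 154 TPM with IUHG, beside 151, 183 and 167 TPM in the E13.5M controls.

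A pair of libraries stood apart. E13.5F IUHG replicate 3 had the highest level of its group for 26 of the 32 members with a group mean of at least 1 TPM, and across all genes its median log2 level was 0.30 above the group mean. Its mean correlation with the other replicates, across genes, was 0.925, the lowest of the 36 libraries. Gonad control replicate 1 held 51.3 TPM of Y-linked RNA, which was listed at 0 in the other 5 gonad libraries, and 262 TPM of the 4 Sertoli cell genes, against 9.15 and 9.38 TPM in replicates 2 and 3. The main counts of called members and other pathway genes that rest on either library are given with and without it. Counts under the other settings are given with it only.

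In the PGCs the receptors were low. *Insr*, the insulin receptor, and *Igf1r*, the IGF1 receptor, stayed under 1 TPM at E12.5 and reached group means of 4.95 ± 0.843 and 4.84 ± 0.265 TPM (SD, n = 3) in control E16.5F. Among the adaptors that couple these receptors to PI3K, *Irs1* stayed under 1 TPM in all 10 PGC groups, *Irs4* reached 1 TPM in 3, and *Irs2* ran from 1.15 ± 0.559 TPM in E12.5 IUHG to 27.5 ± 9.39 TPM in control E16.5F. *Irs2* was thus the most abundant of the 3 adaptors in each PGC group.

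Downstream of the receptors, *Akt1* led the PI3K-AKT genes up to E13.5, with 96.9 ± 7.72 TPM in control E13.5F, while *Akt2*, its paralog, was above it in control E16.5M (50.5 ± 1.72 against 19.5 ± 0.710 TPM). The PI3K subunit genes were lower, from 0.456 TPM for the regulatory subunit *Pik3r1* in E12.5 controls to 14.9 TPM for the catalytic subunit *Pik3cb* in E13.5F IUHG. Without replicate 3 that *Pik3cb* mean was 8.98 TPM, and the highest of the subunit genes became *Pik3ca* in E16.5F IUHG, at 11.95 TPM. Of the GSK3 kinases, *Gsk3b* (10.5 to 34.6 TPM across the groups) exceeded *Gsk3a* (3.00 to 11.4 TPM, or to 12.8 TPM without replicate 3). The FOXO factors differed more: *Foxo1* held 18.8 TPM in E12.5 IUHG to 39.0 TPM in E13.5F IUHG (28.0 TPM there without replicate 3, below the 32.5 TPM of control E13.5M), *Foxo3* held 5.58 to 31.6 TPM and *Foxo4* stayed under 1 TPM in all 10 PGC groups.

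*Rheb*, the GTPase that activates mTORC1, was the most abundant of the 37 genes in control E12.5 PGCs at 476 ± 17.6 TPM and had its lowest group mean, 34.8 ± 4.22 TPM, in control E16.5M. *Eif4ebp1*, the translation repressor that mTORC1 switches off, had its highest mean in E13.5M IUHG (262 ± 10.3 TPM) and its lowest in E16.5F IUHG (24.7 ± 6.03 TPM). *Stk11* ran from 10.4 ± 2.26 TPM in control E13.5F to 125 ± 2.91 TPM in control E16.5M, where it led the 37 genes. Of its partners, the pseudokinase *Strada* peaked in E16.5F IUHG (146 ± 14.4 TPM) and the scaffold *Cab39* in E13.5F IUHG (98.4 ± 45.4 TPM). The *Cab39* mean without replicate 3 was 72.2 TPM, below the 75.2 TPM of control E13.5F. Among the AMPK subunits the regulatory *Prkag1* was the most abundant, up to 174 ± 9.67 TPM in control E13.5F, and of the catalytic pair *Prkaa1* (3.18 to 17.9 TPM) exceeded *Prkaa2*, which reached 1 TPM in 3 groups. Of the acetyl-CoA carboxylases, *Acaca* held 1.39 to 9.01 TPM, and *Acacb*, at the mitochondrial surface, reached 1 TPM in 3 groups.

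The control gonads carried 37 of 37 genes at 1 TPM or more and 33 at 10 TPM or more, led by *Akt1* (284 ± 0.315 TPM), *Gsk3a* (130.2 ± 3.41 TPM), *Rheb* (108 ± 5.98 TPM) and *Stk11* (101 ± 3.15 TPM), whose means without control replicate 1 were 283, 132, 112 and 102 TPM. *Foxo1* was above the control gonad mean in 10 of the 10 PGC groups, *Eif4ebp1* in 9, and *Rheb*, *Pik3cb*, *Strada* and *Prkag1* in 8 each. The gonad and PGC libraries differed in mouse strain, library preparation and, by the authors' methods, aligner and genome build. Gene versions differed too (for *Stk11*, ENSMUSG00000003068.17 in the gonads and ENSMUSG00000003068.18 in the PGCs). These differences and those of tissue therefore cannot be told apart in the levels.

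How the pathway's RNA developed without hyperglycemia was read from 4 comparisons of control PGCs. Neighbouring comparisons share libraries (each control group enters 2 of the 4), so their values stand side by side only. In the E13.5F to E16.5F comparison, 32 of the 37 genes passed the filter, 12 were called higher at E16.5F and 7 lower, beside 34.3% higher and 19.6% lower of all genes tested. The median log2 difference was 0.35 over the members and 0.31 over all genes. *Stk11* held 9.31, 13.0 and 8.95 TPM at E13.5F and 55.2, 62.8 and 60.1 TPM at E16.5F. The groups did not overlap, and its log2 difference of 2.42 (SE 0.18, adjusted p 4.9e-06) was the largest rise among the members. *Foxo3* rose from a mean of 6.27 to 31.6 TPM (2.17, adjusted p 4.7e-05) and *Irs2* from 5.19 to 27.5 TPM (2.15, adjusted p 1.3e-04). The AMPK beta subunits *Prkab2* and *Prkab1* rose by 1.26 and 1.23, and *Pik3r1* by 1.02. In the opposite direction *Akt1* fell from 96.9 to 37.8 TPM (-1.34, adjusted p 3.8e-05) and *Prkaa1* from 9.52 to 3.18 TPM (-1.33, adjusted p 7.7e-04). *Ddit4*, an inhibitor of mTORC1 induced by stress, fell from 3.19 to 1.10 TPM (adjusted p 0.0118, and -1.315 relative to the median of all genes). *Rheb* changed by -0.74, *Cab39* by -0.49 and *Eif4ebp1* by -0.47.

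The call of *Ddit4* in this comparison was lost without E13.5F control replicate 1, at -0.96 (adjusted p 0.0527), and that of *Pik3r1* without E13.5F control replicate 2, at 0.87 (adjusted p 0.0645). *Cab39* was no longer called without E13.5F control replicates 1 or 3 or E16.5F control replicate 1 (-0.45 to -0.37, adjusted p 0.0790 to 0.113). *Eif4ebp1* was no longer called without E13.5F control replicates 2 or 3 or E16.5F control replicate 3 (-0.45 to -0.34, adjusted p 0.0541 to 0.0615). Scaling by median-of-ratios factors moved the median of all genes from 0.31 to 0.097 and the share of higher calls among all calls from 63.6% to 51.2%, and the members then split 11 higher and 8 lower. Relative to the median of all genes, *Stk11* rose by 2.102 and *Akt1* changed by -1.65.

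In the male stage comparison 35 members were tested, with 14 higher and 12 lower at E16.5M, beside 55.5% and 25.9% of all genes. Over the members the median was 0.12, and over all genes 0.62. *Rheb* held 207, 233 and 246 TPM at E13.5M and 39.4, 31.1 and 34.0 TPM at E16.5M. Every E16.5M library was far below every E13.5M library (-2.68, SE 0.10, adjusted p 7.7e-08). *Ddit4* fell from 15.5 to 1.29 TPM (-2.89, adjusted p 2.9e-06), *Prkag1* from 114 to 40.4 TPM (-1.47), and *Eif4ebp1* from 232 to 99.3 TPM (-1.22). *Pik3cb* changed by -1.28 and *Rps6kb1*, the ribosomal S6 kinase that mTORC1 activates, by -1.24. Both carboxylase genes rose, *Acaca* from 1.39 to 7.58 TPM (1.85, adjusted p 1.7e-06) and *Acacb* from 0.179 to 2.21 TPM (1.44). *Stk11* rose from 39.9 to 125 TPM (1.63, adjusted p 7.9e-08), *Prkaa2* from 0.158 to 2.44 TPM (1.55), *Prkab2* from 4.09 to 12.4 TPM (1.41) and *Mtor*, the kinase itself, from 14.3 to 30.3 TPM (1.03). *Acacb* and *Prkaa2* passed the filter of 1 TPM through their E16.5M mean only, the group where they were high. Scaling moved the median of all genes from 0.62 to 0.36 and the members to 10 higher and 14 lower, and *Cab39*, called higher at 0.24, turned to -0.096. *Cab39*, *Prkaa1*, *Foxo3* and *Pdpk1*, the kinase that activates AKT, were called higher yet lay below the median of all genes, by -0.37, -0.27, -0.19 and -0.095. These 4 were chosen after their values were seen.

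Between the sexes at E13.5, 32 members were tested, and 10 were higher and 8 lower in female PGCs, beside 42.5% and 22.6% of all genes. The member median was 0.040 and that of all genes 0.28, which scaling moved to -0.0076. With scaling, the share of higher calls among all calls went from 65.3% to 48.9%, and the members split 7 higher and 13 lower. *Pdpk1* held 3.22, 3.67 and 3.10 TPM in males and 16.2, 19.0 and 21.6 TPM in females. All 3 female libraries were above all 3 male libraries (2.19, SE 0.16, adjusted p 3.5e-06). *Akt1* was higher in females by 1.25 (adjusted p 3.9e-06), *Insr* by 1.08, *Cab39* by 1.03, *Rictor*, the defining subunit of mTORC2, by 0.83, and *Acaca* by 0.80. Lower in females were *Ddit4* at -1.98 (adjusted p 4.8e-06), *Stk11* at -1.86 (adjusted p 6.8e-06), *Eif4ebp1* at -1.62 (adjusted p 3.4e-07), *Irs2* at -1.22, *Prkab1* at -0.75 and *Rptor*, the defining subunit of mTORC1, at -0.69.

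At E16.5, 35 members were tested, and 14 were higher and 11 lower in females, beside 33.3% and 38.9% of all genes. The median was 0.42 over the members, that of all genes -0.10, and -0.36 with scaling, under which the members split 10 higher and 11 lower. *Pdpk1* again separated the sexes, with 6.33, 4.56 and 4.85 TPM in males and 31.7, 28.5 and 36.1 TPM in females (2.41, SE 0.17, adjusted p 8.7e-06). *Rheb* was higher in females by 2.35 (adjusted p 1.5e-06), *Strada* by 2.02, *Rps6kb1* by 1.99, *Prkag1* by 1.72 and *Rictor* by 1.54. *Prkaa1* was lower in females, at 2.86, 3.20 and 3.49 TPM against 13.1, 14.1 and 16.3 TPM, without overlap (-1.89, adjusted p 3.5e-05). *Acacb* differed by -1.11, *Stk11* by -1.07, *Prkaa2* by -0.90, *Tsc1*, a subunit of the complex that switches Rheb off, by -0.87 and *Eif4ebp1* by -0.87. LKB1 and both catalytic AMPK subunit genes were thus lower, and the gamma subunit gene *Prkag1* higher, in female than in male control PGCs at E16.5, with and without scaling. Of these, *Prkaa2* held 0.932, 0.693 and 0.843 TPM in the E16.5F controls. It passed the filter of 1 TPM through its E16.5M mean only, as did *Acacb*.

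Marker lists and depth differed between these control groups too. The sum in each library was, for the 5 germ cell genes, 4965, 5223 and 5220 TPM at E13.5F, 3262, 2955 and 2977 TPM at E16.5F, 8421, 8917 and 9025 TPM at E13.5M and 3376, 2983 and 2993 TPM at E16.5M (led by *Dazl*, *Dppa3* or *Mael*), for the 4 macrophage genes, 8.33, 3.80 and 5.25 TPM at E13.5F, 31.4, 28.3 and 24.0 TPM at E16.5F, 6.498, 5.96 and 5.67 TPM at E13.5M and 35.3, 38.4 and 37.1 TPM at E16.5M (led by *C1qb* or *Cd68*; *C1qa* at 0 in E13.5F replicate 2; *Csf1r* at 0 in E13.5F replicate 2), for the 5 interstitial genes, 10.7, 9.32 and 14.1 TPM at E13.5F, 38.4, 18.1 and 59.4 TPM at E16.5F, 6.20, 5.80 and 7.12 TPM at E13.5M and 16.6, 33.3 and 28.7 TPM at E16.5M (led by *Col1a1* or *Dcn*; *Pdgfra* at 0 in E16.5F replicate 2), and for the 4 endothelial genes, 67.9, 51.2 and 69.8 TPM at E13.5F, 18.4, 27.7 and 16.2 TPM at E16.5F, 46.7, 51.1 and 52.3 TPM at E13.5M and 8.84, 9.23 and 10.3 TPM at E16.5M (led by *Pecam1*; *Kdr* at 0 in E16.5F replicate 2; *Cdh5* at 0 in E16.5F replicate 3; *Tek* at 0 in E13.5M replicate 3). It was, for the 4 Sertoli cell genes, 0.168, 0.373 and 0.694 TPM at E13.5F, 3.61, 4.63 and 2.09 TPM at E16.5F, 59.3, 56.0 and 56.5 TPM at E13.5M and 88.7, 75.4 and 95.3 TPM at E16.5M (led by *Cst9*, *Dhh* or *Sox9*; *Amh* at 0 in each E13.5F library and E16.5F replicate 3; *Cst9* at 0 in E13.5F replicates 1 and 2 and each E16.5F library; *Dhh* at 0 in E13.5F replicate 2), for the 4 pregranulosa genes, 7.09, 9.23 and 9.98 TPM at E13.5F, 20.0, 25.0 and 23.8 TPM at E16.5F, 7.34, 10.1 and 8.00 TPM at E13.5M and 18.5, 17.0 and 17.2 TPM at E16.5M (led by *Fst*, *Wnt4* or *Wnt6*; *Foxl2* at 0 in E13.5M replicate 1), for the 3 supporting lineage genes, 2.66, 2.97 and 2.80 TPM at E13.5F, 7.00, 12.9 and 8.84 TPM at E16.5F, 5.52, 4.77 and 7.35 TPM at E13.5M and 7.61, 8.197 and 7.68 TPM at E16.5M (led by *Gata4*, *Nr5a1* or *Wt1*), and for the 5 red blood cell genes, 37.6, 36.8 and 0 TPM at E13.5F, 5.14, 37.9 and 5.58 TPM at E16.5F, 76.2, 2.02 and 0.824 TPM at E13.5M and 576, 306 and 252 TPM at E16.5M (led by *Hba-a1* or *Hbb-bs*; *Hba-a1* at 0 in E13.5F replicate 3; *Hba-a2* at 0 in E13.5F replicate 3 and E16.5F replicates 1 and 3 and E13.5M replicates 2 and 3; *Hbb-bt* at 0 in E13.5F replicate 3 and E16.5F replicate 1 and E13.5M replicates 2 and 3; *Hbb-bs* at 0 in E13.5F replicate 3 and E13.5M replicate 3; *Alas2* at 0 in E13.5F replicate 3 and E16.5F replicate 3 and E13.5M replicate 2). *Xist* held 0.260, 0.291 and 0.406 TPM at E13.5F and 2.16, 1.89 and 1.37 TPM at E16.5F, and the 4 Y-linked genes, led by *Eif2s3y*, 151, 183 and 167 TPM at E13.5M and 98.8, 82.1 and 78.1 TPM at E16.5M. The depth was 5.80, 5.27 and 3.44 aligned gigabases at E13.5F, 5.10, 5.11 and 5.19 at E16.5F, 7.68, 7.44 and 6.90 at E13.5M and 4.73, 4.34 and 3.95 at E16.5M, and the gene entries above 0 TPM numbered 23974, 26094 and 24820 at E13.5F, 25628, 25029 and 26054 at E16.5F, 26418, 25387 and 25437 at E13.5M, and 32227, 33326 and 32637 at E16.5M. From E13.5 to E16.5 the macrophage, interstitial, pregranulosa, supporting lineage and Sertoli cell sums were higher in both sexes, without overlap. The germ cell and endothelial sums were lower in both sexes, likewise without overlap. Not every gene followed its sum. *Mael* and *Tek* were higher at E16.5 in both sexes, without overlap, *Tek* at 6.47, 10.1 and 7.66 TPM in E16.5F. In males *Ddx4*, *Cdh5* and *Kdr* were higher too and *Amh* and *Dhh* lower, all without overlap. The male macrophage sum followed *Cd68*, at 33.2, 35.2 and 32.15 TPM in E16.5M. The part of these lists in the differences of the members was not tested.

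**Figure D1:**
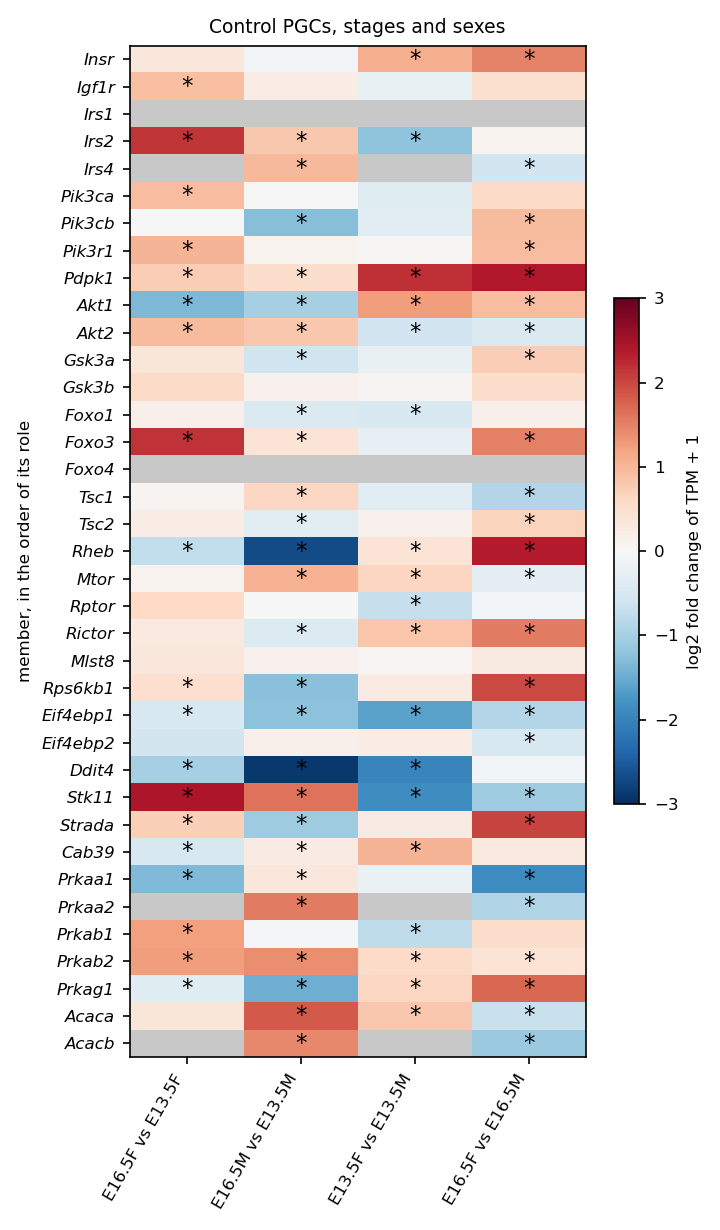
Log2 difference of each gene (vertical axis, grouped by role) in 4 comparisons of control PGCs (horizontal axis); color gives log2(TPM + 1) of the first group minus that of the second, a star marks an adjusted p under 0.05 and gray a gene that was not tested. *Stk11* was higher at E16.5 in both sexes (2.42 and 1.63) and *Pdpk1* was higher in females at both stages (2.19 and 2.41).

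The effect of maternal hyperglycemia was tested in each of the 6 sources. In E12.5 PGCs 29 members were tested and limma called 0 of them higher and 0 lower, beside 0.880% and 0.698% of all genes, and 3 had an unadjusted p under 0.05, beside 15.7% of all genes. The count was also 0 in each of the 7 other settings tried and without each library in turn. Their median was 0.090, against 0.036 over all genes. The lowest p-values belonged to *Akt1*, *Eif4ebp1* and *Foxo3*. *Akt1* held 111, 78.8 and 91.2 TPM in controls and 127, 106 and 154 TPM with IUHG, and the groups overlapped (0.46, adjusted p 0.208). *Eif4ebp1* went from 192, 206 and 202 TPM to 228, 229 and 274 TPM, with no overlap (0.28, adjusted p 0.237). *Foxo3* had 5.02, 5.08 and 6.65 TPM and 9.65, 6.83 and 7.87 TPM, again without overlap (0.47, adjusted p 0.269). None of the 3 passed the correction over all genes. Y-linked RNA, given above, was lower in all 3 E12.5 IUHG libraries than in all 3 controls, and the interstitial cell genes summed to 6.42, 5.07 and 4.96 TPM in controls and 0.391, 0.439 and 1.35 TPM with IUHG, led by *Dcn* in the controls, with *Tcf21* at 0 in control replicate 1, *Dcn* in IUHG replicate 1 and *Nr2f2* in IUHG replicate 3. The 4 Sertoli cell genes summed to 12.6, 14.7 and 13.3 TPM and 5.83, 1.85 and 0.159 TPM, led by *Cst9*, which was at 0 in IUHG replicate 3, as were *Amh* in replicates 1 and 2 and *Sox9* in replicate 2. The IUHG libraries had 26307, 27162 and 27435 gene entries above 0 TPM and the controls 25032, 25940 and 26071. Also without overlap were the 5 germ cell genes at 7272, 7919 and 7648 TPM in controls and 6300, 6684 and 7042 TPM with IUHG (led by *Dppa3*), the 4 pregranulosa genes at 6.13, 3.83 and 3.83 TPM in controls and 2.07, 1.13 and 0.952 TPM with IUHG (led by *Fst* or *Wnt6*; *Foxl2* at 0 in control replicates 2 and 3 and IUHG replicate 1), the 3 supporting lineage genes at 2.57, 1.21 and 2.08 TPM in controls and 0.689, 0.804 and 0.580 TPM with IUHG (led by *Gata4* or *Wt1*), and the 4 endothelial genes at 132, 130.0 and 123 TPM in controls and 165, 153 and 147 TPM with IUHG (led by *Pecam1*; *Tek* at 0 in control replicate 1). Their part in these values was not tested.

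In E13.5F PGCs, when female germ cells approach meiosis, *Stk11* (ENSMUSG00000003068.18, chromosome 10, 79951637 to 79966516, plus strand of the mm39 build) stood out. It held 9.31, 13.0 and 8.95 TPM in the 3 control libraries and 46.7, 45.3 and 65.1 TPM in the 3 IUHG libraries. The 3 IUHG libraries all lay above the 3 controls, with group means of 52.4 ± 11.0 and 10.4 ± 2.26 TPM (SD). At a log2 difference of 2.22 (SE 0.25, adjusted p 0.00326), or 2.08 relative to the median of all genes, it was the 1 member called higher of 33 tested, and 0 were called lower, beside 1.07% and 2.00% of all genes. In bulk samples, a change in the share of cells of a type and a change in RNA per cell cannot be told apart. Without IUHG replicate 3 the difference was 2.06 (adjusted p 4.7e-04), and over all settings and left-out libraries its adjusted p lay between 1.4e-10 and 0.0419.

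**Figure D2:**
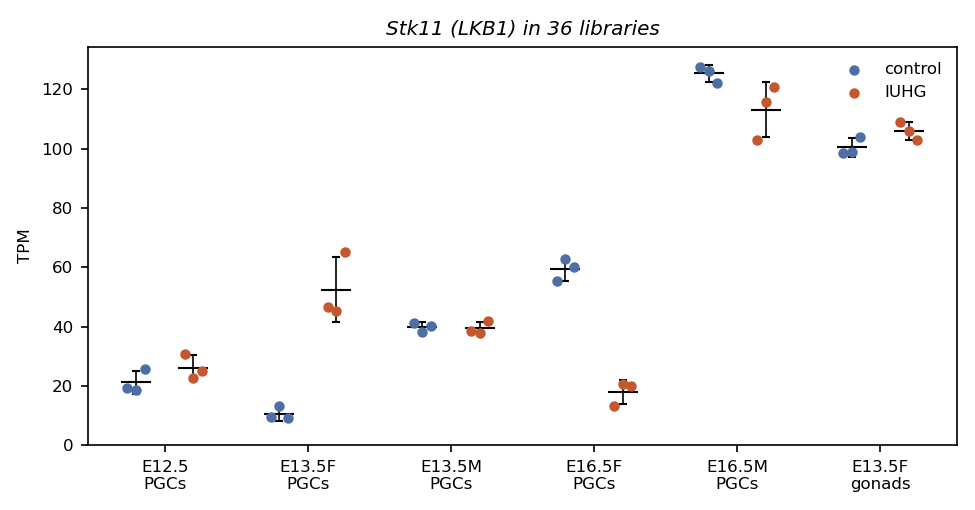
TPM of *Stk11* (vertical axis) in each of the 36 libraries, by source and treatment (horizontal axis); points are libraries, bars the mean of 3 and whiskers the SD. The E13.5F IUHG libraries (45.3 to 65.1 TPM) lie above their controls (8.95 to 13.0 TPM), and the E16.5F IUHG libraries (13.2 to 20.7 TPM) below theirs (55.2 to 62.8 TPM).

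Across the 33 members tested at E13.5F, 28 differences were positive and 5 negative, and the median was 0.53 against 0.14 over all genes, which scaling moved to 0.0045. Without IUHG replicate 3, 25 were positive and 8 negative, and the median was 0.24 against 0.019 over all genes. Unadjusted p-values under 0.05 were seen for 7, or 21.2%, beside 23.4% of all genes. *Gsk3a* held 4.81, 2.56 and 5.77 TPM in controls and 16.8, 8.85 and 8.501 TPM with IUHG, all 3 above the controls (1.19, adjusted p 0.107). *Prkag1* held 185, 168 and 169 TPM in controls and 117, 131 and 94.7 TPM with IUHG, all 3 below the controls (-0.61, adjusted p 0.1004). *Eif4ebp1* had 70.6, 78.1 and 76.9 TPM and 108, 133 and 77.2 TPM, where IUHG replicate 3 lay within the controls (0.46, adjusted p 0.241). Leaving out IUHG replicate 3 raised the count from 1 to 4, while the share of all genes called rose to 11.7%: *Stk11*, *Gsk3a* at 1.35 (adjusted p 0.0365), *Eif4ebp1* at 0.67 (adjusted p 0.0164) and *Prkag1* at -0.48 (adjusted p 0.0335). The latter 3 were named after their values were seen. Without any other single library the count was 1. With all PGC groups in 1 fit, which pools the spread over 10 groups, 16 members were called, 15 higher and 1 lower, among 5344 called of 16519 genes (32.4%). The mean correlations with the other replicates were 0.981, 0.978 and 0.978 in the controls and 0.949, 0.952 and 0.925 with IUHG. Of the marker lists, the 4 endothelial genes summed to 67.9, 51.2 and 69.8 TPM in controls and 89.3, 127 and 209 TPM with IUHG, led by *Pecam1*, which was the 1 gene of the 4 above 1 TPM in each library, and *Tek* was at 0 in IUHG replicate 3. The 5 interstitial genes summed to 10.7, 9.32 and 14.1 TPM and 4.65, 5.53 and 8.00 TPM, led by *Dcn* in the controls, with *Tcf21* at 0 in IUHG replicate 1 and *Pdgfra* in replicate 3. Also without overlap were the 5 germ cell genes at 4965, 5223 and 5220 TPM in controls and 5460, 5731 and 6206 TPM with IUHG (led by *Dazl* or *Dppa3*), and *Xist*, at 0.260, 0.291 and 0.406 TPM and 1.03, 0.738 and 0.954 TPM. Within the germ cell list *Mael* went the other way, at 538, 492 and 540.4 TPM in controls and 259, 252 and 239 TPM with IUHG, without overlap. Their part in the results was not tested.

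In E13.5M PGCs, of 32 members tested, 3 were higher and 10 lower with IUHG, which is 9.38% and 31.3%, beside 15.3% and 18.1% of all genes. The member median was -0.12 and that of all genes -0.023. With scaling 4 members were higher and 9 lower. Unadjusted, 18 members had a p under 0.05, or 56.2%, beside 43.9% of all genes. The differences were moderate. Under the study's PGC thresholds, P under 0.01 (read here as adjusted) with a fold change over 2 on log2(TPM + 1), 0 of the 13 passed. *Igf1r* missed the fold limit on that scale, while its plain means, 2.63 and 1.29 TPM, had a ratio of 2.04.

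Of the receptor and adaptor genes, *Igf1r* and *Irs2* were lower. *Igf1r* held 2.49, 2.69 and 2.70 TPM in controls and 1.51, 0.998 and 1.35 TPM with IUHG, without overlap (log2 difference -0.67, SE 0.15, adjusted p 0.00816). *Irs2* held 10.7, 14.7 and 15.1 TPM in controls and 6.39, 7.82 and 7.74 TPM with IUHG. All 3 IUHG libraries were below the controls (log2 difference -0.79, SE 0.14, adjusted p 0.00238). Among the PI3K-AKT genes, *Akt1* (ENSMUSG00000001729.15, chromosome 12, 112620255 to 112640710, minus strand) rose, from 39.0, 41.1 and 39.9 TPM to 61.1, 66.3 and 69.6 TPM, and each IUHG library was above each control (log2 difference 0.70, SE 0.065, adjusted p 5.8e-05). *Akt2* went the other way, from 28.6, 27.2 and 28.8 TPM to 23.8, 21.4 and 25.5 TPM, without overlap (log2 difference -0.25, SE 0.080, adjusted p 0.0366). The PI3K catalytic subunit *Pik3ca* had 6.14, 5.94 and 7.75 TPM and 4.17, 4.75 and 5.15 TPM, with the IUHG libraries lower throughout (log2 difference -0.42, SE 0.13, adjusted p 0.0369). The opposite signs of the AKT paralogs held with scaling, at 0.72 and -0.23. Of the targets of AKT, *Gsk3b* was lower at 10.5, 10.5 and 10.6 TPM against 13.46, 15.1 and 12.3 TPM in controls (log2 difference -0.34, SE 0.096, adjusted p 0.0234), and *Foxo1*, a factor that AKT excludes from the nucleus, was lower at 23.7, 24.7 and 26.7 TPM against 29.9, 35.5 and 32.0 TPM (log2 difference -0.36, SE 0.082, adjusted p 0.00867). In both the groups did not overlap.

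The mTORC1 arm was mixed. *Tsc1* held 17.7, 19.7 and 20.9 TPM in controls and 10.3, 9.26 and 11.4 TPM with IUHG (log2 difference -0.85, SE 0.10, adjusted p 2.5e-04). *Ddit4* held 14.3, 16.2 and 15.9 TPM and 7.15, 9.02 and 7.96 TPM (log2 difference -0.87, SE 0.11, adjusted p 2.8e-04). These genes, both of which encode inhibitors upstream of mTORC1, were lower in each IUHG library than in each control. *Mtor* was higher, at 19.9, 16.4 and 18.1 TPM against 13.53, 15.0 and 14.3 TPM in controls (log2 difference 0.32, SE 0.093, adjusted p 0.0252), and *Rptor* was lower, at 6.06, 6.65 and 6.29 TPM against 8.10, 7.52 and 8.40 TPM (log2 difference -0.30, SE 0.10, adjusted p 0.0498), both without overlap. *Eif4ebp1* rose from 234, 235 and 229 TPM to 253, 261 and 273 TPM, a small step with no overlap (log2 difference 0.17, SE 0.045, adjusted p 0.0162). In the AMPK arm *Prkaa1* held 10.5, 11.9 and 11.1 TPM in controls and 7.80, 7.90 and 7.66 TPM with IUHG, all 3 below the controls (log2 difference -0.47, SE 0.094, adjusted p 0.00473). *Stk11*, by contrast, held 41.3, 38.2 and 40.0 TPM and 38.5, 37.8 and 42.0 TPM, overlapping groups whose difference of -0.015 (adjusted p 0.885) turned to 0.0090 with scaling.

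**Figure D3:**
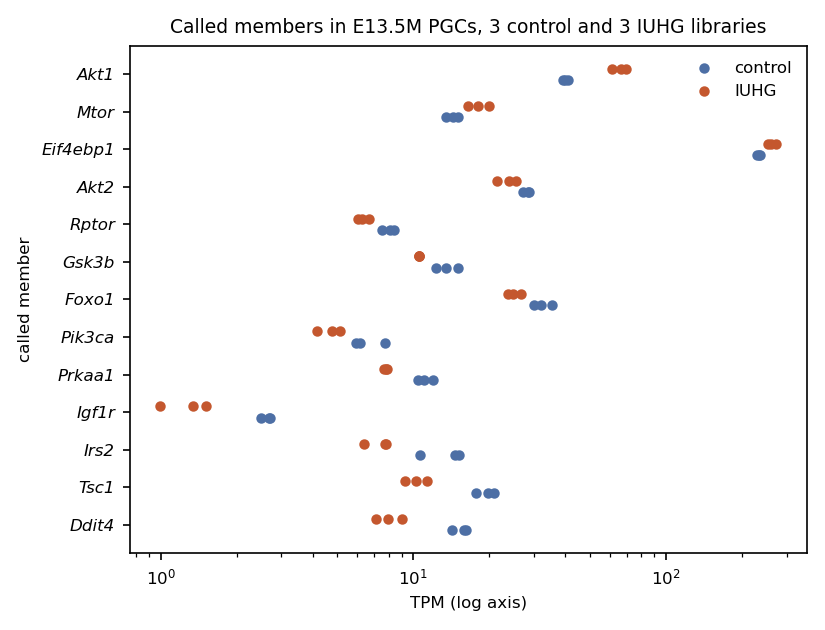
TPM of the 13 members called in E13.5M PGCs (log horizontal axis) in the 3 control and 3 IUHG libraries, 1 gene per position on the vertical axis. Each point is a library. *Akt1* goes from 39.0 to 41.1 TPM in controls to 61.1 to 69.6 TPM with IUHG, and *Tsc1* from 17.7 to 20.9 TPM to 9.26 to 11.4 TPM.

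The calls of *Akt1*, *Tsc1*, *Ddit4*, *Irs2*, *Prkaa1*, *Igf1r* and *Foxo1* in E13.5M PGCs held without each of the 6 libraries. The other 6 did not. *Rptor* was lost without any 1 of the 6 (-0.34 to -0.27, adjusted p 0.0626 to 0.141), and *Akt2* without each control and IUHG replicates 1 and 2 (-0.28 to -0.19, adjusted p 0.0581 to 0.133). *Mtor* was lost without control replicates 1 and 3 and IUHG replicates 1 and 3 (0.25 to 0.32, adjusted p 0.0588 to 0.0928), and *Gsk3b* without control replicate 2 and each IUHG replicate (-0.34 to -0.27, adjusted p 0.0542 to 0.0812). *Pik3ca* was lost without control replicate 3 and IUHG replicates 1 and 2 (-0.43 to -0.31, adjusted p 0.0818 to 0.131), and *Eif4ebp1* without control replicate 3 and IUHG replicate 3 (0.14 to 0.16, adjusted p 0.0546 to 0.0626). *Rptor* was also lost with scaling (adjusted p 0.0629), with FPKM (0.0599), with no filter (0.0695) and with the replicate number as a block (0.0819). With that block 13 members were called, and 12 of them were main calls. With no filter *Mtor*, *Gsk3b*, *Akt2* and *Pik3ca* were lost too (adjusted p 0.0582 to 0.110). Without IUHG replicate 1 the count was 8, beside 26.0% of all genes. With all PGC groups in 1 fit 4 calls remained, *Akt1*, *Tsc1*, *Ddit4* and *Irs2*, and 8.74% of all genes were called. Of the calls that held without each library, *Prkaa1* (adjusted p 0.0819), *Igf1r* (0.0645) and *Foxo1* (0.411) were lost there, as were the other 6. Marker lists also differed. The germ cell gene *Mael* held 152, 169.5 and 169.9 TPM in controls and 85.5, 84.3 and 92.3 TPM with IUHG, and without overlap lay the 5 germ cell genes at 8421, 8917 and 9025 TPM in controls and 7535, 7493 and 7784 TPM with IUHG (led by *Dppa3*), the 3 supporting lineage genes at 5.516, 4.772 and 7.354 TPM in controls and 4.305, 4.684 and 4.766 TPM with IUHG (led by *Gata4* or *Wt1*), and the 4 macrophage genes at 6.498, 5.96 and 5.67 TPM in controls and 5.43, 4.97 and 3.08 TPM with IUHG (led by *Cd68*; *C1qa* at 0 in IUHG replicate 3). The 5 interstitial genes summed to 6.20, 5.80 and 7.12 TPM in controls and 2.24, 3.46 and 2.98 TPM with IUHG, led by *Dcn* or *Col1a1*. The 4 endothelial genes summed to 46.7, 51.1 and 52.3 TPM and 73.1, 76.3 and 83.5 TPM, led by *Pecam1*, the 1 gene of 4 above 1 TPM, with *Tek* at 0 in control replicate 3 and each IUHG library and *Cdh5* in IUHG replicate 3. The 4 Sertoli cell genes, led by *Cst9*, overlapped at 59.3, 56.0 and 56.5 TPM and 85.7, 75.8 and 52.6 TPM. The 4 Y-linked genes, led by *Eif2s3y*, summed to 151, 183 and 167 TPM and 119, 119.6 and 116 TPM. Control replicate 1 held 76.2 TPM of the 5 red blood cell genes, led by *Hba-a1*, against at most 2.02 TPM in the other 5 libraries. Their part in the results was not tested.

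In E16.5F PGCs, in meiotic prophase, the 3 called members were all lower with IUHG. Of 34 tested, 0 were higher and 3 lower, beside 2.57% and 3.10% of all genes, and the median was 0.070 against 0.039 over all genes. *Stk11* held 55.2, 62.8 and 60.1 TPM in controls and 13.2, 20.7 and 19.8 TPM with IUHG. Every IUHG library was below every control, the reverse of the order at E13.5F (log2 difference -1.70, SE 0.19, adjusted p 0.00263). *Prkab1* (ENSMUSG00000029513.15, chromosome 5, 116151645 to 116162567, minus strand), an AMPK beta subunit that joins the catalytic and gamma subunits, held 29.0, 26.6 and 45.2 TPM in controls and 12.6, 14.5 and 14.6 TPM with IUHG, also without overlap (log2 difference -1.18, SE 0.23, adjusted p 0.0218). *Eif4ebp1* (ENSMUSG00000031490.7, chromosome 8, 27750357 to 27766702, plus strand) held 58.8, 59.7 and 44.6 TPM and 20.1, 31.5 and 22.5 TPM, again with each IUHG library below each control (log2 difference -1.12, SE 0.20, adjusted p 0.0182). At the same stage *Strada* was 99.5, 99.2 and 117 TPM in controls and 143, 161 and 133 TPM with IUHG, higher in all 3 but not called (0.47, adjusted p 0.0547). *Prkaa1* was 2.86, 3.20 and 3.49 TPM and 5.39, 5.87 and 6.52 TPM, higher in all 3 and not called (0.73, adjusted p 0.174). The last 2 were named after their values were seen.

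The call of *Stk11* at E16.5F held without each library. *Prkab1* and *Eif4ebp1* were no longer called without control replicate 1, control replicate 2, control replicate 3 or IUHG replicate 3, so that the count was then 1. Their differences in those 4 fits were -1.32 to -0.95, adjusted p 0.0632 to 0.0979, for *Prkab1*, and -1.25 to -1.05, adjusted p 0.0516 to 0.0986, for *Eif4ebp1*. In the fit of all PGC groups 8 members were called, 4 higher and 4 lower, beside 25.7% of all genes called. The E16.5F IUHG libraries had 21079, 22235 and 24456 gene entries above 0 TPM and the controls 25628, 25029 and 26054, without overlap, at a depth of 5.10, 5.17 and 3.25 aligned gigabases against 5.10, 5.11 and 5.19, and their mean correlations with the other replicates were 0.929, 0.934 and 0.961, against 0.953, 0.956 and 0.956 in the controls. Of the germ cell list, *Dppa3* held 253, 227 and 184 TPM in controls and 14.5, 2.53 and 9.81 TPM with IUHG, and *Mael* 1267, 1213 and 1245 TPM and 1032, 942 and 1025 TPM, both without overlap, whereas *Ddx4* was higher without overlap, at 368, 359.7 and 362 TPM and 417, 374 and 423 TPM, and the list of 5 summed to 3262, 2955 and 2977 TPM and 2968, 2613 and 2922 TPM, which overlapped. Also without overlap were the 4 Sertoli cell genes at 3.61, 4.63 and 2.09 TPM in controls and 0, 1.46 and 1.28 TPM with IUHG (led by *Dhh* or *Sox9*; *Cst9* at 0 in each library; *Amh* at 0 in control replicate 3 and IUHG replicate 1; *Sox9* at 0 in IUHG replicate 1; *Dhh* at 0 in each IUHG library), and the 4 pregranulosa genes at 20.0, 25.0 and 23.8 TPM in controls and 33.0, 28.5 and 28.2 TPM with IUHG (led by *Fst* or *Wnt6*). Within the latter list *Foxl2* was lower without overlap, at 1.45, 1.71 and 2.67 TPM and 0.549, 1.33 and 0.623 TPM. The 4 macrophage genes summed to 31.4, 28.3 and 24.0 TPM in the E16.5F controls and 10.2, 5.25 and 8.10 TPM with IUHG, led by *C1qb* in the controls, with *Cd68* at 0 in IUHG replicate 1 and *C1qb* in replicate 2. The 5 interstitial genes, led by *Dcn*, with *Pdgfra* at 0 in control replicate 2, summed to 38.4, 18.1 and 59.4 TPM and 75.0, 109.9 and 91.8 TPM, and the 5 red blood cell genes reached 293 TPM in IUHG replicate 3 against at most 37.9 TPM in the other 5. Their part in the results was not tested.

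Because *Stk11*, *Eif4ebp1* and *Prkab1* fell together at E16.5F, their promoters were looked up in the RefSeq table of the GRCm38.p6 build. It held 34 of the 37 members, in 40 windows, and not *Insr*, *Foxo4* or *Eif4ebp1*. The 250 bases before the start are shown for *Stk11* (chr10:80115545-80115794, plus strand, 59.6% GC) and *Prkab1* (chr5:116024429-116024678, minus strand, 65.6% GC), with CCAAT in capitals.
Stk11: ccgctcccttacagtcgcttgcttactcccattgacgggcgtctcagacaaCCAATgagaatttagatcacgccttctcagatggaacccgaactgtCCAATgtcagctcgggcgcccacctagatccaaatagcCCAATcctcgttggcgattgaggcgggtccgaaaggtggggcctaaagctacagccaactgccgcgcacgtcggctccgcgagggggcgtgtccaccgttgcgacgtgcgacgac
Prkab1: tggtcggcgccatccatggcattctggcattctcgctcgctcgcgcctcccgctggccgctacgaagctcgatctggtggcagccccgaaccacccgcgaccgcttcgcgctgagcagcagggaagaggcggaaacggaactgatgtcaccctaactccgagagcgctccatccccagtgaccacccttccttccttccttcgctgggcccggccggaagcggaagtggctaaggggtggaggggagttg
The *Stk11* stretch held CCAAT 3 times, first bases at -199, -153 and -115 from the start, and the *Prkab1* stretch held none of the motifs searched. Windows of 300 bases, 250 before and 50 after the start, were searched on both strands. CCAAT was in 37.4% of the 32851 windows and 35% of the 40 member windows. The GC box GGGCGG was in 35.7% and 62.5%, the E-box CACGTG in 7.15% and 10%, the forkhead motif GTAAACA in 3.65% and 5%, and the CRE TGACGTCA in 1.79% and 0%. The forkhead letters were in the windows of *Stk11* and *Akt1*; in *Stk11* they lay after the start, at 17 to 23, and shared base 17 with a GC box. These matches describe letters and not binding.

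In E16.5M PGCs, in mitotic arrest, *Rheb* (ENSMUSG00000028945.10, chromosome 5, 25007821 to 25047622, minus strand) was the 1 member called. It held 39.4, 31.1 and 34.0 TPM in controls and 47.2, 48.5 and 50.5 TPM with IUHG. The IUHG libraries were all above the controls, by 0.48 (SE 0.099, adjusted p 0.0291). Of 35 members tested, 1 was higher and 0 lower, beside 3.38% and 2.55% of all genes, and scaling moved the share of higher calls among all calls from 57.0% to 41.6%. The member median was 0.10 and that of all genes 0.042. The call of *Rheb* was lost without control replicates 2 or 3 or any IUHG replicate (0.40 to 0.50, adjusted p 0.0546 to 0.116). At the same difference of 0.48 it was also lost with the replicate number as a block (adjusted p 0.0579) and with no filter on low genes (0.0842). Without IUHG replicate 1, *Akt1* was called in its place (-0.72, adjusted p 0.0377), from 19.2, 20.3 and 18.9 TPM in controls and 17.6, 13.2 and 9.90 TPM with IUHG, and was named after its value was seen. With all 6 libraries *Akt1* was not called (-0.53, adjusted p 0.112). In the fit of all PGC groups *Rheb* and *Irs4*, an adaptor, were called, beside 5.18% of all genes (*Irs4* 0.45, adjusted p 0.0326, named after its value was seen). *Prkag1* (43.7, 38.9 and 38.8 TPM to 51.3, 47.1 and 51.3 TPM, 0.30, adjusted p 0.0728) and *Rictor* (9.86, 9.98 and 9.93 TPM to 12.2, 13.9 and 14.0 TPM, 0.39, adjusted p 0.0737) were higher in all 3 IUHG libraries without passing the threshold. Both were likewise chosen after their values were seen. *Stk11* held 128, 126 and 122 TPM and 103, 116 and 121 TPM, lower in all 3 and not called (-0.15, adjusted p 0.257). The 4 Sertoli cell genes, led by *Cst9*, summed to 88.7, 75.4 and 95.3 TPM in controls and 35.8, 29.1 and 17.4 TPM with IUHG. Also without overlap were the 4 Y-linked genes at 98.8, 82.1 and 78.1 TPM in controls and 116, 123 and 117 TPM with IUHG (led by *Eif2s3y*), the 5 interstitial genes at 16.6, 33.3 and 28.7 TPM in controls and 37.9, 35.4 and 36.3 TPM with IUHG (led by *Col1a1* or *Dcn*), and the 3 supporting lineage genes at 7.61, 8.197 and 7.68 TPM in controls and 4.87, 5.87 and 5.96 TPM with IUHG (led by *Gata4* or *Wt1*). The 5 germ cell genes overlapped at 3376, 2983 and 2993 TPM and 3339, 3439 and 3427 TPM, led by *Mael*, while *Ddx4* (302, 289 and 273 TPM to 355, 339 and 324 TPM) and *Dazl* (459, 434 and 432 TPM to 512, 534 and 549 TPM) were higher without overlap. *Xist* was higher with IUHG, at 0.286, 0.284 and 0.208 TPM against 0.121, 0.167 and 0.0858 TPM. The 5 red blood cell genes overlapped at 576, 306 and 252 TPM and 283, 133 and 58.5 TPM, led by *Hba-a1* in the controls. Their part in the result was not tested.

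In whole E13.5F gonads 37 of the 37 genes were tested, and limma called 0 higher and 0 lower, beside 1.45% and 1.06% of all genes. Unadjusted, 6 members had a p under 0.05, or 16.2%, beside 19.9% of all genes, and the median was 0.058 against 0.0073 over all genes. *Pik3cb* came nearest, with 5.26, 5.92 and 6.21 TPM in controls and 8.88, 9.43 and 8.34 TPM with IUHG, all 3 above the controls (0.54, adjusted p 0.0506). It was called with FPKM (0.47, adjusted p 0.0432) and with a pseudocount of 0.1 (0.61, adjusted p 0.0493), and the count was 0 in the other 4 settings. *Strada* held 42.2, 42.0 and 44.7 TPM and 54.3, 50.3 and 49.96 TPM (0.26, adjusted p 0.0671), and *Mtor* 30.8, 31.8 and 31.6 TPM and 40.6, 36.8 and 36.4 TPM (0.26, adjusted p 0.0791), both without overlap. *Stk11*, which rose in the PGCs of this stage, held 98.4, 99.0 and 104 TPM and 109, 106 and 103 TPM in the gonads (0.076, adjusted p 0.438), and the difference between gonads and PGCs was not tested. Without control replicate 1, the library with Y-linked RNA, the count was also 0, as it was without each other library, and the median was 0.034 over the members. The gonad IUHG libraries had a lower depth than the controls, 3.89, 3.90 and 4.52 against 4.64, 4.57 and 4.95 aligned gigabases, and fewer gene entries above 0 TPM, 26612, 26745 and 27130 against 27422, 27262 and 27460. The 5 red blood cell genes, led by *Hba-a1*, summed to 14350, 11340 and 13080 TPM in controls and 8648, 7349 and 8041 TPM with IUHG, and the 5 interstitial genes, led by *Col1a1*, to 1470, 1490 and 1397 TPM and 1017, 1109 and 1110 TPM. The 5 germ cell genes summed to 555, 479 and 489 TPM and 774, 695 and 627 TPM, and the 3 genes of the supporting lineage, led by *Wt1*, to 401, 399.9 and 406 TPM and 474, 479 and 469 TPM. The 4 pregranulosa genes, led by *Wnt6*, summed to 238, 290.2 and 306 TPM and 284, 287 and 269 TPM, and *Xist*, the female marker, held 163, 221 and 228 TPM and 169, 190.0 and 198 TPM. Their part in the values was not tested.

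**Figure D4:**
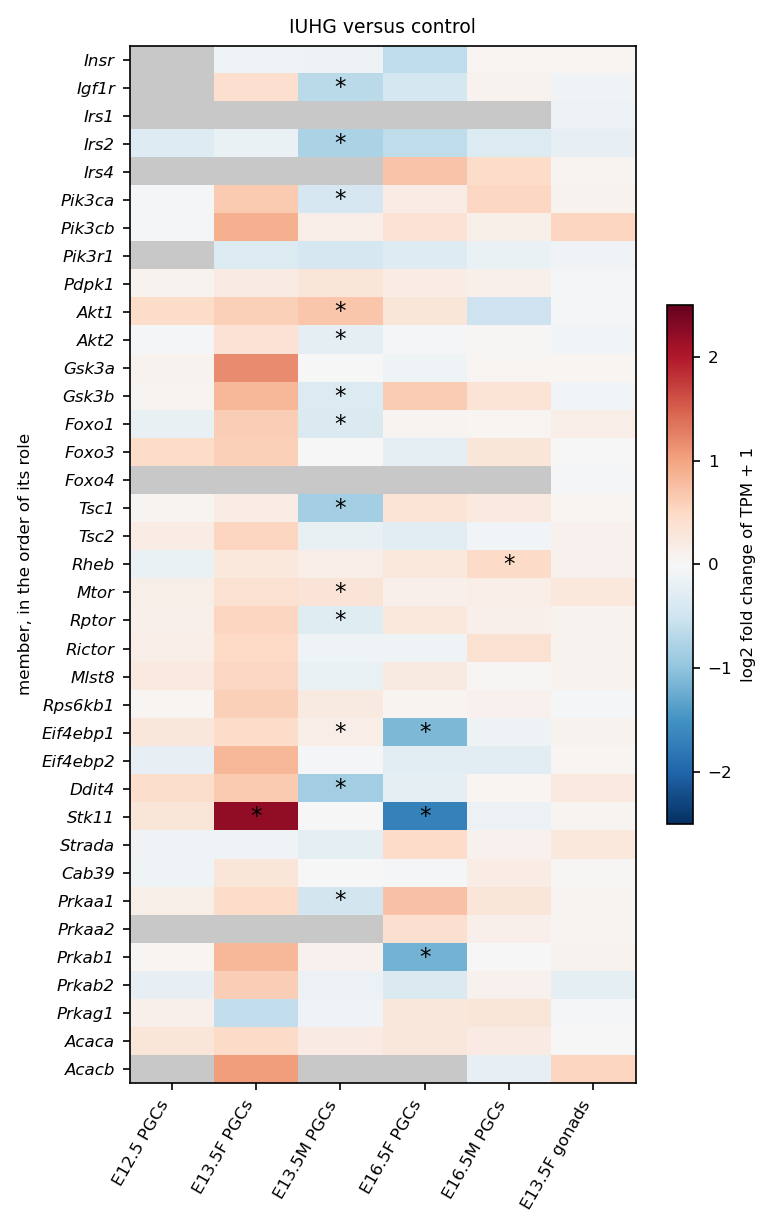
Log2 difference, IUHG minus control on log2(TPM + 1), of each gene (vertical axis, grouped by role) in the 6 sources (horizontal axis); color gives the difference, a star marks an adjusted p under 0.05 and gray a gene that was not tested. The called members number 0 at E12.5, 1 in E13.5F, 13 in E13.5M, 3 in E16.5F, 1 in E16.5M and 0 in the gonads, and *Stk11* goes from 2.22 in E13.5F to -1.70 in E16.5F.

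Whether the IUHG difference itself depended on sex or stage was tested with interaction terms. At E13.5 the female difference minus the male difference was tested for 33 members, and 3 were called higher and 0 lower, beside 5.05% and 4.83% of all genes. The member median was 0.68 and that of all genes 0.16, which scaling moved to -0.012, with the share of higher calls among all calls going from 51.1% to 40.9%. *Stk11*, given above for each library, had an interaction of 2.24 (SE 0.24, adjusted p 1.6e-04), or 2.08 relative to the median of all genes. *Ddit4* held 3.42, 3.401 and 2.76 TPM in E13.5F controls and 7.76, 3.56 and 6.17 TPM with IUHG, higher in all 3 but not called within females (0.66, adjusted p 0.262), whereas in males it fell. Its interaction was 1.52 (SE 0.32, adjusted p 0.0114). *Prkaa1* held 10.2, 8.86 and 9.51 TPM in E13.5F controls and 13.1, 10.0 and 18.1 TPM with IUHG, overlapping groups (0.45, adjusted p 0.339), and its interaction of 0.92 (SE 0.27) passed narrowly (adjusted p 0.0496). Scaling kept the sign of all 3, at 2.02, 1.34 and 0.73. The interactions of *Stk11* and *Ddit4* held without each of the 12 libraries. That of *Prkaa1* was lost without each E13.5F control, E13.5F IUHG replicate 1, each E13.5M control or each E13.5M IUHG replicate (0.87 to 0.96, adjusted p 0.0529 to 0.124). The count rose to 6, 9 and 8 without E13.5F IUHG replicates 1, 2 and 3, where 13.2, 18.0 and 21.0% of all genes were called. Without replicate 3 the values of *Stk11*, *Ddit4* and *Prkaa1* were 2.07, 1.46 and 0.71, and the median was 0.41 over the members and 0.039 over all genes. With all PGC groups in 1 fit 10 members were called, 9 higher and 1 lower, beside 15.8% of all genes called.

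In females the difference at E16.5 minus that at E13.5 was tested for 35 members, of which 1 was called higher and 3 lower, beside 3.30% and 2.89% of all genes. The member median was -0.46 and that of all genes -0.10, which scaling moved to -0.025. This test and the sex interaction share the E13.5F libraries. *Stk11* had the largest value of the members, -3.92 (SE 0.32, adjusted p 6.4e-06), or -3.82 relative to the median of all genes. *Prkab1* held 12.3, 11.3 and 17.1 TPM in E13.5F controls and 19.0, 24.7 and 31.3 TPM with IUHG, above the controls in all 3 where at E16.5F it fell (-2.01, SE 0.36, adjusted p 0.00498). *Eif4ebp1* had an interaction of -1.58 (SE 0.31, adjusted p 0.00904). *Prkag1* (ENSMUSG00000067713.8, chromosome 15, 98710678 to 98729402, minus strand) was 135.4, 134 and 137 TPM in E16.5F controls and 157, 184 and 157 TPM with IUHG, above the controls in all 3 where at E13.5F it lay below them (0.90, SE 0.21, adjusted p 0.0193). The AMPK beta subunit gene *Prkab1* and gamma subunit gene *Prkag1* thus had interactions of opposite sign, also with scaling, at -1.91 and 1.01. *Stk11*, *Prkab1* and *Eif4ebp1* kept their call without each of the 12 libraries. *Prkag1* lost it without E13.5F control replicate 1, at 0.86 (adjusted p 0.0649). Without E13.5F IUHG replicate 3 the 4 values were -3.76, -1.84, -1.79 and 0.78, in the order *Stk11*, *Prkab1*, *Eif4ebp1* and *Prkag1*, and *Strada* was also called, beside 9.64% of all genes (0.84, adjusted p 0.0204). The median without that library was -0.11 over the members and -0.0047 over all genes. In the fit of all PGC groups 10 members were called, 2 higher and 8 lower, beside 24.9% of all genes called. The corresponding interactions for male stage and for sex at E16.5 were not tested.

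**Figure D5:**
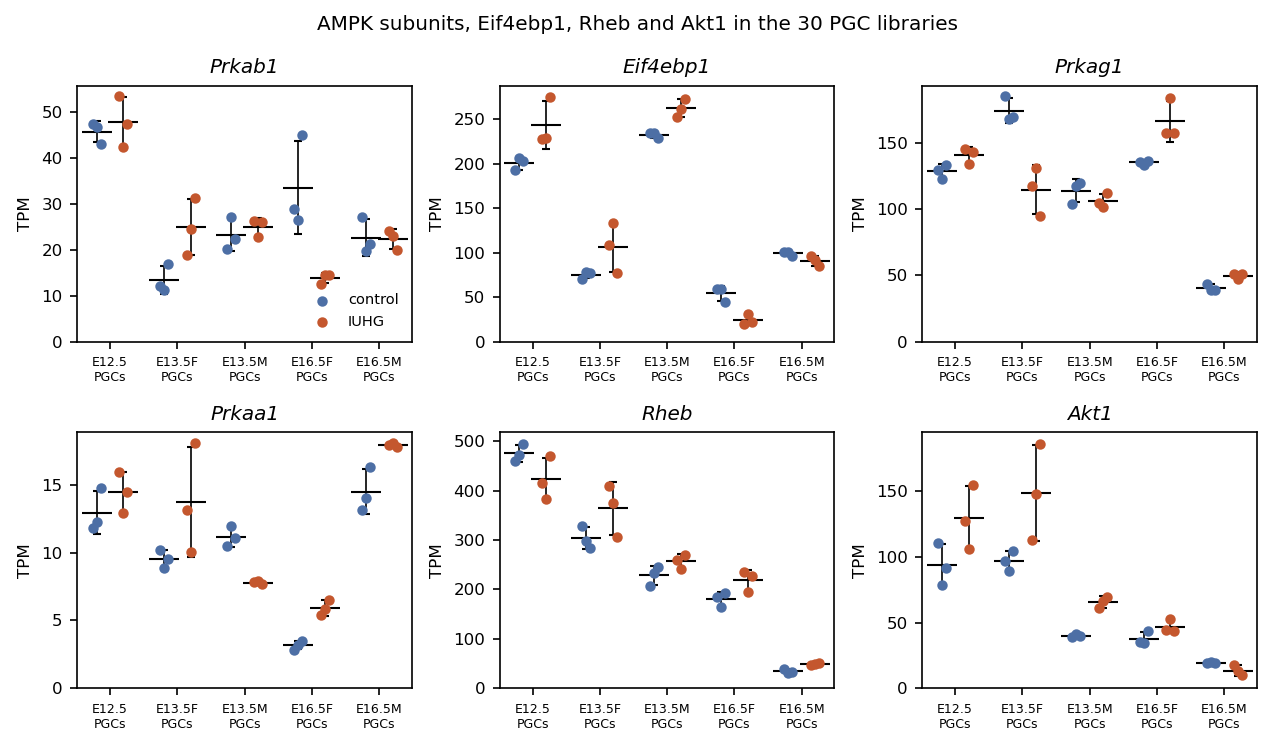
TPM (vertical axes) of *Prkab1*, *Eif4ebp1*, *Prkag1*, *Prkaa1*, *Rheb* and *Akt1* in the 30 PGC libraries, by group (horizontal axis); points are libraries, bars the mean of 3 and whiskers the SD. In E16.5F the IUHG libraries of *Prkab1* (12.6 to 14.6 TPM) lie below their controls (26.6 to 45.2 TPM), and *Rheb* is lowest in E16.5M controls (31.1 to 39.4 TPM).

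Of 115 other genes of these pathways, 91 were tested at E12.5 with 0 called by limma in each direction, beside 0.880% and 0.698% of all genes. In E13.5F 101 were tested (0.99% higher and 0% lower, beside 1.07% and 2.00% of all genes) and 1 was higher, *Pfkfb3*, which makes an activator of glycolysis, from a mean of 4.42 to 13.9 TPM (1.45, adjusted p 0.0231). Without IUHG replicate 3, a setting chosen for these genes after seeing the data, 11 were called, 2 higher and 9 lower, among 1855 called of 15834 genes, and *Pfkfb3* was again 1 of them (1.33, adjusted p 0.00589). In E16.5F 102 were tested, 3 higher and 1 lower (2.94% higher and 0.98% lower, beside 2.57% and 3.10% of all genes). *Prr5*, an mTORC2 subunit, fell from 46.7 to 13.6 TPM (-1.73, adjusted p 0.00417), while *Mapkap1*, its partner in mTORC2, rose from 56.3 to 92.4 TPM (0.73, adjusted p 0.0463). *Itfg2*, of the KICSTOR complex, rose by 0.60 and the IGF binding protein *Igfbp5* by 1.74. In E16.5M 105 were tested, with 3.81% higher and 1.9% lower, beside 3.38% and 2.55% of all genes. The 4 higher and 2 lower genes were *Txnip*, an inhibitor of glucose uptake, at 0.49 (adjusted p 0.0101), *Sesn1* at 0.48, *Itfg2* at 0.57 and *Sgk3* at 0.42, against *Igfbp4* at -0.66 and *Sik1* at -0.58. In the gonads 110 were tested (0.909% higher and 0.909% lower, beside 1.45% and 1.06% of all genes), and *Trib3*, a pseudokinase that binds AKT, was higher (1.01, adjusted p 0.0408) and *Igfbp2* lower (-0.30, adjusted p 0.0347). Without control replicate 1, likewise chosen after seeing the data, *Trib3* lost its call (0.89, adjusted p 0.0796) and *Igfbp2* kept it (-0.36, adjusted p 0.0183).

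In E13.5M PGCs 97 of the 115 were tested, and 10 were higher and 21 lower (10.3% higher and 21.6% lower, beside 15.3% and 18.1% of all genes). Each list below holds few genes. Of 11 ligands and receptor partners tested 3 were higher and 2 lower, among them *Ins2*, an insulin gene, from 0.331 to 10.1 TPM (3.09, adjusted p 5.3e-06), *Grb14*, an inhibitor of the insulin receptor, at -1.27, *Igfbp3* at 0.55 and *Igfbp6* at -0.79. *Ins2* passed the filter of 1 TPM through its IUHG mean only, and no other setting was tried on it in this comparison. Of 11 PI3K-AKT partners 0 were higher and 5 lower, led by the PI3K catalytic subunit *Pik3cd* from 35.9 to 21.5 TPM (-0.72, adjusted p 2.8e-04), *Sgk1* at -0.49, *Sgk3* at -0.63 and *Pik3r3* at -0.58. The 15 mTOR complex and translation partners split 2 and 2, with *Tbc1d7* of the TSC complex at 0.31, *Deptor* at 0.42, *Akt1s1* at -0.22 and *Eif4ebp3* at -1.43. Of 27 amino acid sensing genes 0 were higher and 4 lower, namely *Rragd*, a Rag GTPase, at -1.04 (adjusted p 8.6e-04), *Itfg2* at -0.63, *Wdr24* at -0.31 and *Sesn1* at -0.41. The 15 LKB1-AMPK partners and AMPK-related kinases split 3 and 3, with *Prkag2* at 0.37, *Stradb* at 0.43, *Camkk2* at -0.57 and *Mark4* at -0.50 of lowest p. Of 9 metabolic targets 0 were higher and 3 lower, *Gys1* at -0.48, *Srebf1* at -0.30 and *Pfkfb3* at -0.29. The 9 FOXO target genes split 2 and 2, with *Sod2* at 0.56 (adjusted p 1.9e-04) and *Gadd45a* at 1.03 higher and the ubiquitin ligase *Fbxo32* at -1.30 (adjusted p 1.9e-04) and *Ccng2* at -0.36 lower.

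In the sex interaction at E13.5, 102 of these genes were tested with 4 higher and 5 lower (3.92% higher and 4.9% lower, beside 5.05% and 4.83% of all genes). *Pfkfb3* (1.74, adjusted p 4.7e-04), *Fbxo32* (1.82), *Rragd* (1.67) and *Trib3* (0.68) were higher, and *Sod2* (-1.05, adjusted p 0.00267), *Igfbp2* (-1.07), *Ins2* (-2.36), *Stradb* (-1.20) and *Tbc1d7* (-0.55) lower. Without E13.5F IUHG replicate 3, chosen after seeing the data, all 9 kept their call and 21 were called, 10 higher and 11 lower, among 3508 of 16724 genes. In the female stage interaction 105 were tested (1.9% higher and 2.86% lower, beside 3.30% and 2.89% of all genes) with 2 higher, *Igfbp2* (1.28, adjusted p 0.00714) and *Stradb* (0.99), and 3 lower, *Pfkfb3* (-2.42, adjusted p 0.0115), *Sik1* (-1.75) and *Prr5* (-1.42). Without that library all 5 kept their call and 15 were called, 11 higher and 4 lower, among 1944 of 20161 genes.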

How the data were processed

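RNA-seq tables of 36 libraries were used. By their methods, the authors aligned the PGC reads with STAR and the gonad reads with HISAT2, while the sample labels name STAR for both. The deposited tables, in the layout of StringTie, give TPM, FPKM and coverage, a signal per base, and the authors' own counts for DESeq2 were not used. TPM was analysed, and depth was derived from coverage and FPKM. Rows of a gene ID were summed, and of IDs with the same symbol the most abundant was kept.

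Genes with a mean of at least 1 TPM in a compared group were fitted on log2(TPM + 1) with limma 3.58.1 (lmFit, eBayes with trend, two-sided) in R 4.3.3, with Benjamini-Hochberg adjustment over all genes tested. The fit was tested on simulated data. Python 3.11.15, numpy 2.4.6, pandas 2.3.3 and matplotlib 3.10.9 served for tables and figures. With 3 against 3 libraries an exact permutation test cannot go below a p of 0.1, so none was used. The members and lists were chosen with earlier results of these data known.

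Named genes were, per IUHG comparison, every called member up to 10 per direction by p, or the 3 with the lowest p where fewer than 3 were called; per control comparison, the 6 called members with the largest difference per direction; and every member called in an interaction. Of 7 lists of other pathway genes, up to 4 called genes per list were named in each IUHG comparison and 1 per list in control comparisons. The 10 marker lists covered germ, Sertoli, pregranulosa, supporting, interstitial, endothelial, red blood and macrophage cells and both sexes. Alternatives were leaving out each library, the study's thresholds, the replicate number as a block, scaling by median-of-ratios factors, FPKM values, 1 fit of all PGC groups, no filter on low genes and a pseudocount of 0.1. The study's PGC threshold was taken as an adjusted p.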

Additional observations from a re-analysis of the deposited data

Results flagged for a closer look

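For 7 values the IUHG difference itself differed between sexes or between stages by limma's interaction test. Between the sexes at E13.5, *Stk11* had an interaction, female minus male, of 2.24 (adjusted p 1.6e-04), since it rose in females (2.22) and differed by -0.015 in males. *Ddit4* had 1.52 (adjusted p 0.0114), from 0.66 in females and -0.87 in males. *Prkaa1* had 0.92 (adjusted p 0.0496), from 0.45 and -0.47, a call that was lost without 10 of the 12 libraries (adjusted p up to 0.124), with no filter (0.0870) and with the replicate block (0.0595).

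Between the stages in females, E16.5 minus E13.5, *Stk11* had -3.92 (adjusted p 6.4e-06), *Prkab1* -2.01 (adjusted p 0.00498) and *Eif4ebp1* -1.58 (adjusted p 0.00904). Each of these 3 was lower with IUHG at E16.5F and had a positive difference at E13.5F. *Prkag1* had 0.90 (adjusted p 0.0193), from -0.61 at E13.5F and 0.29 at E16.5F, and lost its call without E13.5F control replicate 1.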

How the results depend on the processing

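Over the other settings, 454 values of named called members kept their call and 57 lost it. With 1 library left out, 424 kept it and 56 lost it. The values that lost it kept their sign. Over all called members, *Cab39* in the male stage comparison was the 1 that changed sign with scaling. The other pathway genes were run again only without the library that stood apart, chosen after seeing the data: 11 were then called in E13.5F in place of 1, 1 in the gonads in place of 2, 21 in the sex interaction in place of 9 and 15 in the stage interaction in place of 5. No other setting was tried on them.

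In this and the next 2 paragraphs, the share of all genes called under the same setting stands in brackets. With the study's thresholds, the called members numbered 0 (3.93%) in E13.5M, 1 (0.742%) in E16.5F, 0 (0.201%) in E16.5M, 7 (28.2%) in the female and 14 (51.0%) in the male stage comparison, 8 (29.8%) between the sexes at E13.5 and 11 (50.9%) at E16.5, and 1 (2.79%) in the sex interaction; these thresholds set a lower p limit and a fold limit at once. In E16.5F *Prkab1* and *Eif4ebp1* passed the fold limit and failed the p limit of 0.01, as did *Pik3r1* in the female stage comparison and *Ddit4* in the sex interaction. Without a filter, 8 (8.65%) were called in E13.5M, 1 (0.470%) in E16.5F and 0 (0.538%) in E16.5M, with more genes in the adjustment. The count was then 15 (20.4%) in the female stage comparison and 2 (2.66%) in the sex interaction. Of the members named in the female stage comparison, *Pik3r1* (adjusted p 0.0597), *Eif4ebp1* (0.0520) and *Cab39* (0.0819) lost their call. With all PGC groups in 1 fit, the counts were 16 (32.4%) in E13.5F, 4 (8.74%) in E13.5M, 8 (25.7%) in E16.5F, 2 (5.18%) in E16.5M, 10 (15.8%) in the sex interaction and 10 (24.9%) in the stage interaction; the cause was not tested. With FPKM and with a pseudocount of 0.1, 1 member was called in the gonads (3.19% and 2.40%); the cause was not tested.

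With the replicate number as a replicate block, 2 (7.37%) were called in E13.5F, 0 (2.71%) in E16.5M, 0 (0.981%) at E12.5, 13 (32.4%) in E13.5M, 3 (3.58%) in E16.5F and 0 (0.789%) in the gonads, 18 (51.5%) and 25 (80.8%) in the female and male stage comparisons, 18 (63.7%) and 21 (71.6%) between the sexes at E13.5 and E16.5, and 2 (9.43%) and 4 (5.92%) in the sex and stage interactions. Whether the numbers pair libraries is unknown. Of 3 IUHG libraries, 1 (E12.5), 2 (E13.5F), 3 (E13.5M), 2 (E16.5F), 1 (E16.5M) and 0 (gonads) correlated best with the control of their own number. The highest correlation between libraries of the same number was 0.124. In E13.5M the correlations were 0.022, 0.064 and 0.102, and so few libraries cannot exclude a pairing.

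Leaving out 1 library gave 0 to 0 (0.268% to 2.11%) called members at E12.5, 1 to 4 (0.253% to 11.7%) in E13.5F, 8 to 11 (25.5% to 31.0%) in E13.5M, 1 to 3 (0.908% to 6.63%) in E16.5F, 0 to 1 (0.717% to 4.14%) in E16.5M and 0 to 0 (0.344% to 1.82%) in the gonads. It gave 15 to 20 (43.4% to 53.0%) in the female and 22 to 25 (77.5% to 80.8%) in the male stage comparison, 16 to 20 (56.3% to 67.4%) between the sexes at E13.5, 17 to 26 (65.3% to 72.5%) at E16.5, 2 to 9 (5.08% to 21.0%) in the sex interaction and 3 to 5 (2.83% to 9.64%) in the stage interaction. Depth is known as aligned bases only, so the counting error of genes near 1 TPM is unknown.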

Other observations

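The other 115 pathway genes also differed between stages and sexes in control PGCs. In the order of the female stage, male stage, E13.5 sex and E16.5 sex comparisons, 104, 104, 102 and 109 were tested, and limma called 31 higher and 24 lower, 56 higher and 33 lower, 53 higher and 20 lower, 39 higher and 41 lower. The shares were, in turn, 29.8% higher and 23.1% lower, beside 34.3% and 19.6% of all genes, 53.8% higher and 31.7% lower, beside 55.5% and 25.9% of all genes, 52% higher and 19.6% lower, beside 42.5% and 22.6% of all genes, and 35.8% higher and 37.6% lower, beside 33.3% and 38.9% of all genes; the lists below are to be read beside these shares. Higher and lower calls in the same order were 3 and 3, 12 and 1, 8 and 1, 3 and 8 for the ligands and receptor partners, 3 and 5, 3 and 7, 7 and 4, 6 and 6 for the PI3K-AKT partners, and 5 and 2, 6 and 6, 5 and 2, 7 and 3 for the mTOR complex and translation partners. They were 12 and 6, 13 and 6, 13 and 4, 11 and 8 for amino acid sensing, 4 and 3, 10 and 6, 10 and 3, 7 and 8 for the LKB1-AMPK partners and AMPK-related kinases, 1 and 2, 5 and 4, 5 and 4, 2 and 4 for the AMPK and insulin targets in metabolism, and 3 and 3, 7 and 3, 5 and 2, 3 and 4 for the FOXO target genes. The gene of lowest p is named from each list. *Igf2r*, which clears IGF2, rose from 4.86 to 16.0 TPM in the female stage comparison (1.52, adjusted p 2.8e-04), and *Igfbp2*, an IGF binding protein, from 22.0 to 496 TPM in the male one (4.44, adjusted p 5.5e-09). *Trib3* fell from 22.9 to 1.05 TPM in females (-3.73, adjusted p 5.0e-05), and *Foxo6* rose from 1.10 to 12.48 TPM in males (2.67, adjusted p 1.5e-06). *Tbc1d7*, the TSC complex subunit beside TSC1 and TSC2, rose in both sexes, from 93.3 to 274 TPM (1.54, adjusted p 7.2e-06) and from 49.5 to 290.4 TPM (2.53, adjusted p 1.6e-08). In amino acid sensing, *Lamtor5* of the Ragulator complex rose from 491 to 1299 TPM in females (1.40, adjusted p 6.5e-07), and *Castor1*, the arginine sensor, fell from 43.0 to 3.91 TPM in males (-3.17, adjusted p 4.6e-08). The kinase gene *Snrk* rose in females (1.68, adjusted p 8.2e-05) and *Mark4* in males (2.27, adjusted p 3.5e-07), *Mlycd*, which breaks down malonyl-CoA, rose in females (1.29, adjusted p 5.3e-05) and *Pfkfb3* fell in males (-2.78, adjusted p 1.2e-07), and the FOXO targets *Ccng2* and *Txnip* rose in females (2.06, adjusted p 2.3e-05) and males (1.71, adjusted p 1.5e-07).

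Between the sexes, *Stradb*, the paralog of *Strada*, was higher in females at both stages, with means of 77.9 against 7.92 TPM at E13.5 (3.15, adjusted p 1.3e-07) and 139.7 against 5.34 TPM at E16.5 (4.48, adjusted p 3.2e-07). The cap-binding gene *Eif4e* was likewise higher, by 0.71 and 2.41. At E13.5 *Igfbp2* (1.67), *Fnip1* (2.13) and *Sod2* (1.73) were higher in females, and *Sgk1* (-2.04) and *Pfkfb3* (-1.998) lower. At E16.5 *Pik3r3* (2.46), *Mlycd* (2.65) and *Ccng2* (2.23) were higher in females, and *Flcn* (-3.34) and *Igfbp2* (-2.74) lower.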
